A study of Caenorhabditis elegans with 2 samples.

Results

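The heat shock protein and chaperone genes described here are the protein-coding genes of Caenorhabditis elegans whose names begin with hsp, dnj or cct followed by a number, together with daf-21. The rule found 61 of the 19971 nuclear protein-coding genes of the RefSeq annotation. The annotation lists daf-21 as hsp-90 (C47E8.5), which the name rule also finds, and a matching pseudogene, hsp-2, is not counted. The members comprise 2 Hsp90 genes, 6 Hsp70 and Hsp110 genes, 1 Hsp60 gene, 15 small heat shock protein genes, 29 DnaJ genes and 8 genes for subunits of the chaperonin CCT. The product names in the annotation are those of chaperones, CCT subunits or J domain proteins, except at dnj-21. That gene is named as the TIM14 subunit of the mitochondrial import translocase.

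Binding of DAO-5, the worm relative of the nucleolar protein Nopp140, had been mapped by chromatin immunoprecipitation and sequencing with an antibody to GFP. The strain was OP252, a transgenic line that stably expresses DAO-5 with a GFP and FLAG tag at its C terminus. Whole hermaphrodites at the L4 or young adult stage were used, so cells of every tissue were mixed, and chromatin was sheared by sonication. There was 1 group of 2 biological replicates and no second condition, and no heat shock or other stress is named in the labels. The antibody recognises the tag, and untagged DAO-5 is not measured.

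Chaperones bind unfolded or newly made proteins and keep them from aggregating. Hsp70 proteins work in cycles of ATP hydrolysis that DnaJ proteins start and Hsp110 proteins help to reset, Hsp90 acts late in folding, and Hsp60 and CCT enclose their clients in a ring. Small heat shock proteins hold unfolded proteins without using ATP. Some of these genes run in every cell, others are silent until heat shock, when the factor HSF-1 binds heat shock elements before them, and others answer to unfolded protein in the endoplasmic reticulum or in mitochondria.

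Each gene was given the strongest peak summit that lay from 1000 bp upstream to 200 bp downstream of its start, its promoter window. The value of a peak is the authors' own signal, used only to describe and rank peaks within a list. The authors' thresholded list of 549 peaks, chosen by them for reproducibility, put a summit at 7 of the 61 genes (11.5%), against 1.22% of all protein-coding genes. These were hsp-60, dnj-29, dnj-13, cct-7, dnj-14, hsp-3 and hsp-1. The pooled list of 16687 peaks, which holds background peaks as well as peaks, had a summit at 35 members (57.4%), against 23.7% of all genes. The replicate 1 list had one at 36 members (59%), against 28.5% of all genes, and the replicate 2 list at 33 (54.1%), against 29.1%. Both replicate lists had a summit at 25 members (41%), against 15.1% of all genes. No summit in the pooled or replicate lists was found at 15 members (24.6%), against 56.9% of all genes. The members were chosen with earlier results of these data known, so these shares are given without a test.

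The difference from the gene average lay at the high end of the signal more than in its middle. Among members with a pooled summit the median signal was 24.7, against 22.7 over all genes with one. A pooled signal of at least 30 was found at 12 members (19.7%), against 5.56% of all genes. At least 40 was reached by 9 members (14.8%), against 2.47% of all genes, and at least 50 by 8 members (13.1%), against 1.39%.

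**Figure D1:**
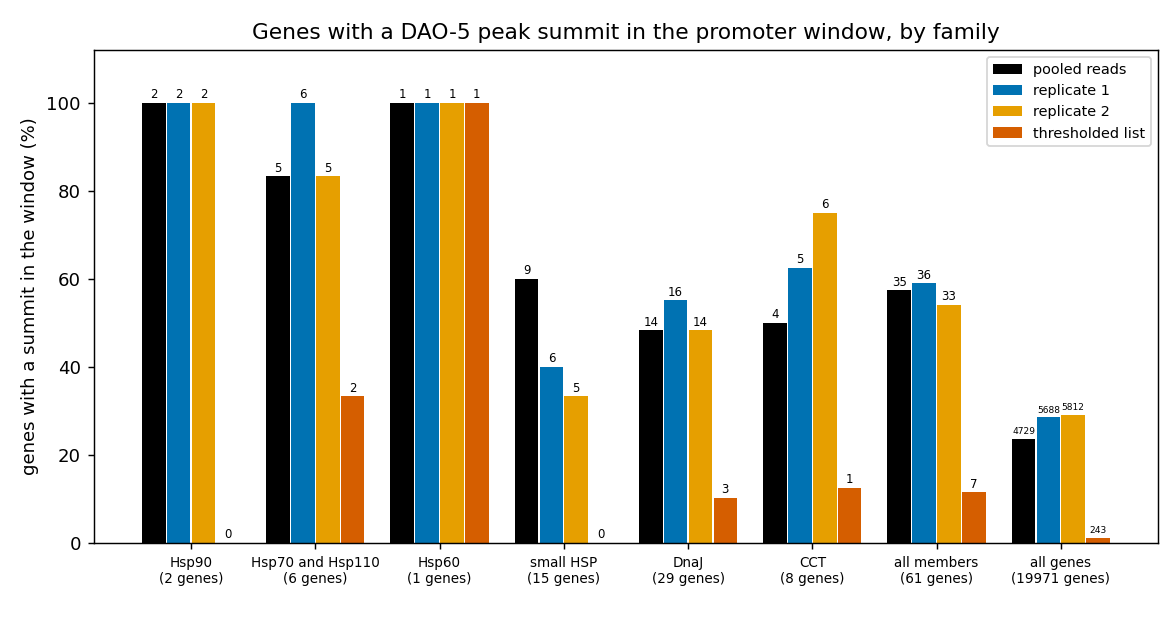
Share of genes, in percent, with a peak summit in the promoter window, by chaperone family, for all members and for all genes. Bars stand for the pooled, replicate 1, replicate 2 and thresholded lists, and the numbers above them are counts of genes. The bars of all members are higher than those of all genes in each of the 4 lists, and no Hsp90 or small heat shock protein gene has a thresholded summit.

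The sequences under 5 of the leading summits are shown so that the elements discussed with each gene, and their absence at hsp-3, can be read in place. Each is 201 bases of the ce11 genome, centred on the pooled summit and read in the direction of the chaperone gene. The windows are hsp-60 at chrIII:1619043-1619243 (plus strand), hsp-6 at chrV:4827007-4827207 (minus strand), cct-7 at chrV:1871916-1872116 (plus strand), hsp-3 at chrX:6092055-6092255 (minus strand) and hsp-1 at chrIV:17278307-17278507 (plus strand). Capitals mark the heat shock element cores GAANNTTC and TTCNNGAA, in which N is any base, and the motifs GGGCGG and GAGAGA on either strand. Where the 2 cores overlap by 3 bases they form a 3-unit heat shock element, shown as 1 run of capitals.
hsp-60: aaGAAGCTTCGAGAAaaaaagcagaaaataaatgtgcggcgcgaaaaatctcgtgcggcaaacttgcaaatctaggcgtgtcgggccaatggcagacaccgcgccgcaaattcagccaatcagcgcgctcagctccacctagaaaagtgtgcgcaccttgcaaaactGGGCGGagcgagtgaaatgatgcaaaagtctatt
hsp-6: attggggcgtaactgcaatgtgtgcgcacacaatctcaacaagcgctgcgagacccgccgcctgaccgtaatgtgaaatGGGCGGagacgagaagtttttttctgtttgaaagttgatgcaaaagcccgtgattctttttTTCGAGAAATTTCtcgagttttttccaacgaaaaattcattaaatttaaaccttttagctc
cct-7: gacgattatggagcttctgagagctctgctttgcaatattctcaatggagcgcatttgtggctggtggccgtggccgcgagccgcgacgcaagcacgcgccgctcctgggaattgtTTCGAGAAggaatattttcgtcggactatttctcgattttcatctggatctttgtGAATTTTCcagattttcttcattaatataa
hsp-3: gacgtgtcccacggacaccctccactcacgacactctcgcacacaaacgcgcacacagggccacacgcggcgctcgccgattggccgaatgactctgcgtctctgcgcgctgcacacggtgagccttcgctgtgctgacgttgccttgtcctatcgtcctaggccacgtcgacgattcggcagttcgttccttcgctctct
hsp-1: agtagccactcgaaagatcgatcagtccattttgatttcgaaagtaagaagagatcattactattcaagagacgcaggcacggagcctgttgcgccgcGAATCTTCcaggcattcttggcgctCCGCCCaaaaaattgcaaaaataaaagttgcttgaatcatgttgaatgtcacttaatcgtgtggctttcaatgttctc

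The strongest chaperone promoter was that of hsp-60, the ring chaperonin of the mitochondrial matrix. Its signal was 76.2 in the pooled list (rank 179 of 16687), 43.2 in replicate 1 (rank 149) and 31.8 in replicate 2 (rank 351). It was the 1 member (1.64%) within the strongest 549 peaks of each replicate, a place reached by 0.591% of all genes. Replicate summits lay 7 bp apart. The pooled summit was 599 bp upstream of the hsp-60 start and 214 bp upstream of the start of the divergent gene Y22D7AL.10, which the annotation names as the mitochondrial 10 kDa heat shock protein. That protein is the lid of the Hsp60 ring, and its name is outside the rule, so it is not counted as a member. The 3-unit heat shock element in the printed window lay 98 to 86 bases before the summit, on the side of Y22D7AL.10.

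Of the Hsp70 genes, hsp-3 and hsp-1 had thresholded summits. The gene hsp-3 encodes an Hsp70 of the endoplasmic reticulum, and its signal was 54.9 pooled, 30.8 in replicate 1 and 22.3 in replicate 2, with the summit 370 bp upstream. The window of hsp-3 was the richest in G and C of the 7 thresholded members, at 66.3% of the 101 bases around the summit, and it held none of the marked motifs. Signal at hsp-1, the constitutive Hsp70 of the cytosol, was 53.2 pooled, 23.9 in replicate 1 and 31.8 in replicate 2. Its summit lay 552 bp upstream on a heat shock element core. A 3-unit element began 144 bp upstream of the hsp-1 start, between summit and start and outside the printed window. The replicate summits at hsp-1 were 6 bp apart.

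None of the other 4 Hsp70 and Hsp110 genes reached the lowest thresholded signal of 51.8. At hsp-6, the Hsp70 of mitochondria, which is used as a marker of mitochondrial stress, the signal was 41.3 pooled, 18.1 in replicate 1 and 24.8 in replicate 2. Its summit was 347 bp upstream, and a 3-unit heat shock element lay 40 to 52 bases beyond the summit towards the start. The same summit was 253 bp upstream of the divergent gene C37H5.5, annotated as a homolog of nucleolar complex protein 3. At hsp-4, the stress-induced partner of hsp-3 in the endoplasmic reticulum, values were 24.7 pooled, 9.32 in replicate 1 and 11.7 in replicate 2, against the 54.9 pooled of hsp-3. The motif TGACGTG, a core that the unfolded protein response factor XBP-1 is known to bind, was present in the 300 bases around the start of hsp-4 and absent there from hsp-3. The heat-inducible hsp-70 had 24.3 pooled and 19 in replicate 1, and replicate 2 had no summit. The Hsp110 gene hsp-110, whose product exchanges nucleotide on Hsp70, had no pooled summit and values of 9.15 in replicate 1 and 18.5 in replicate 2.

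Both Hsp90 genes had a pooled summit and neither was in the thresholded list. At hsp-90, the cytosolic Hsp90 known as DAF-21, the pooled signal was 51.2 at rank 569, just under the lowest thresholded value of 51.8, with 29 in replicate 1 and 24.3 in replicate 2. In the ce10 version of the lists, where the threshold stood at 51.1, a peak of the same chromosome and signal (within 0.001) was in the thresholded list. The hsp-90 call therefore differed between the authors' 2 thresholded lists, which hold 549 peaks in ce11 and 572 in ce10. The nearest members on either side of the ce11 threshold were hsp-1 at 53.25 inside and hsp-90 at 51.16 outside, followed by hsp-6 at 41.31. The mitochondrial Hsp90 gene hsp-75 had 28.8 pooled, 11.2 in replicate 1 and 18.2 in replicate 2.

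**Figure D2:**
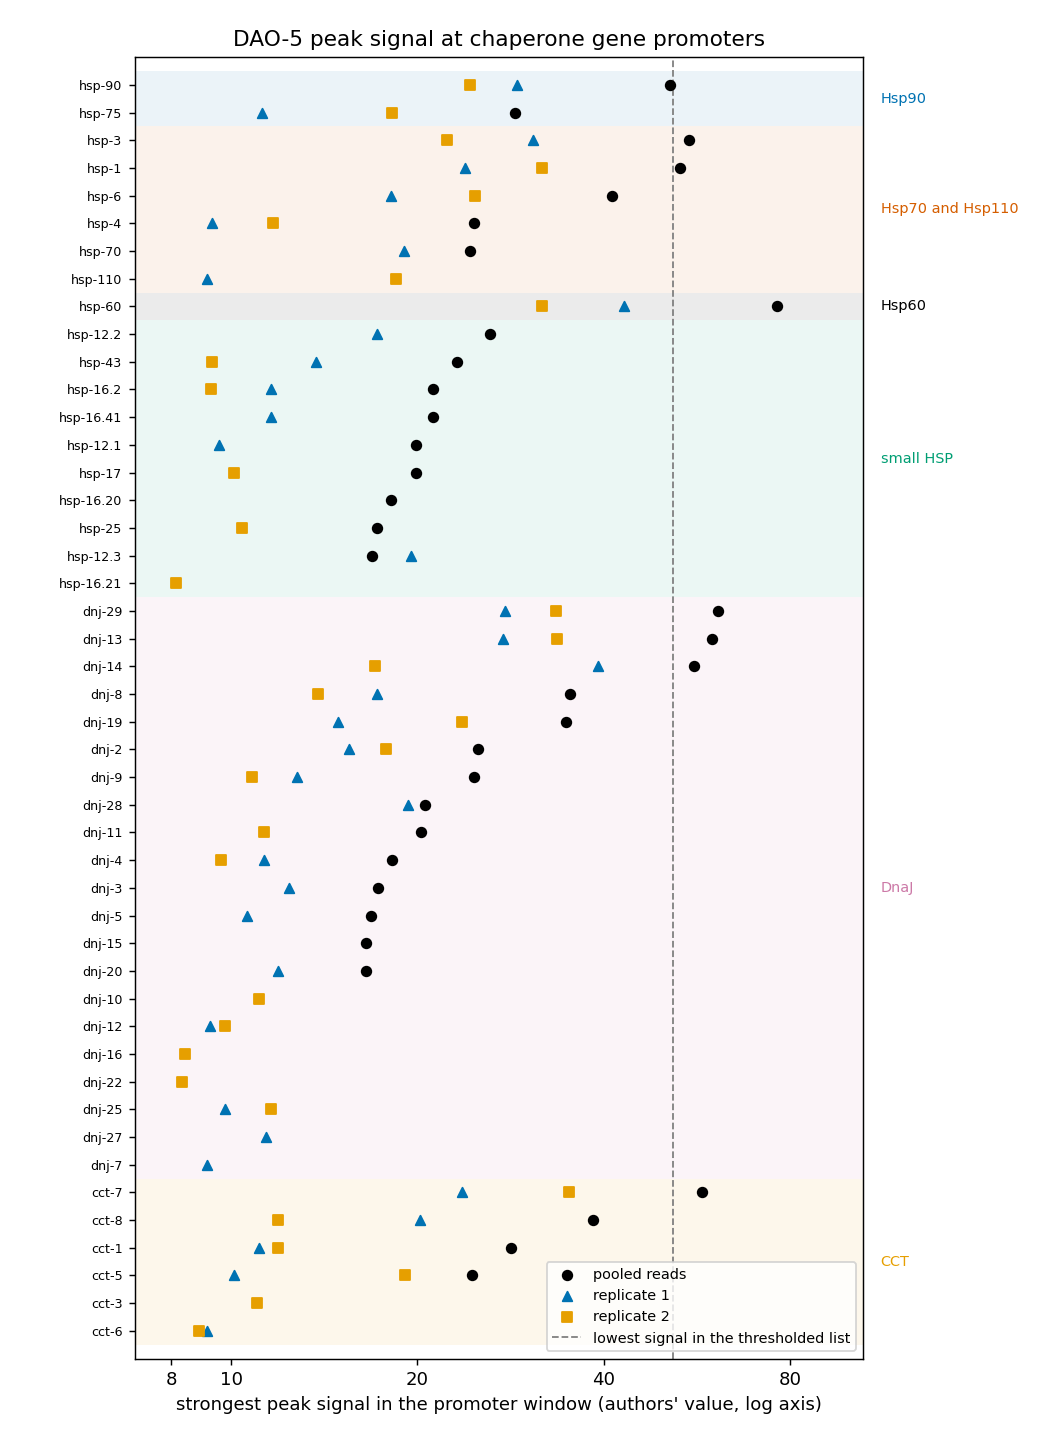
Strongest peak signal in the promoter window of each of the 46 members with a summit in at least 1 list (log axis), grouped by family. Circles are pooled reads, triangles replicate 1, squares replicate 2, and the dashed line is the lowest signal of the thresholded list, 51.8. Of the members, 7 lie right of the line, hsp-90 lies just left of it, and no small heat shock protein gene exceeds 26.2 in the pooled list.

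The DnaJ family, the partners that hand clients to Hsp70, held a few strong promoters, and 15 of its 29 had no pooled summit. Thresholded summits were found at 3 of 29 genes (10.3%), against 1.22% of all genes, and pooled summits at 14 (48.3%), against 23.7%. The signal of dnj-29 was 61.1 pooled, 27.7 in replicate 1 and 33.5 in replicate 2, with the summit 166 bp upstream. At dnj-13, a class B DnaJ protein of the kind that acts with Hsp70 and Hsp110 in clearing aggregates, it was 59.9 pooled, 27.5 in replicate 1 and 33.6 in replicate 2, with the summit 224 bp upstream. For both genes replicate 2 was the higher. The order was the reverse at dnj-14, the worm relative of the cysteine string protein of synaptic vesicles, with 55.9 pooled, 39.1 in replicate 1 (rank 216) and 17.1 in replicate 2 (rank 2574). The peak at dnj-14 was thus outside the strongest 549 of replicate 2. Next in the family was dnj-8 at 35.3 pooled, 17.2 in replicate 1 and 13.8 in replicate 2. After it came dnj-19 at 34.8 pooled, 14.9 in replicate 1 and 23.6 in replicate 2. The dnj-19 summit was 376 bp upstream of its start but 25 bp upstream of the start of the divergent gene nhr-47. The other 9 pooled values were 25.1 or lower. The 15 genes without a pooled summit were dnj-1, dnj-7, dnj-10, dnj-12, dnj-16, dnj-17, dnj-18, dnj-21, dnj-22, dnj-23, dnj-24, dnj-25, dnj-26, dnj-27 and dnj-30, and 8 of them had none in any list.

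Promoter windows of the genes for CCT, the cytosolic chaperonin that folds actin and tubulin, had very different values. Each ring of the complex takes 1 of each subunit. The highest was cct-7, with 57.7 pooled, 23.6 in replicate 1 and 35.1 in replicate 2, the only thresholded summit of the 8 (12.5%, against 1.22% of all genes). The order went on with cct-8 at 38.4 pooled, 20.2 in replicate 1 and 11.9 in replicate 2. At cct-1 the values were 28.3 pooled, 11.1 in replicate 1 and 11.9 in replicate 2. At cct-5 they were 24.5 pooled, 10.1 in replicate 1 and 19.1 in replicate 2. Each of these pooled summits also lay in the window of a divergent gene, so none can be assigned to the CCT gene from its place. The other start was the nearer at cct-8 (141 bp against 480 bp), cct-1 (169 bp against 251 bp) and cct-7 (209 bp against 230 bp). The cct-5 summit was nearer to cct-5, at 260 bp against 481 bp. The replicates do not keep the order of the pooled values: cct-5 was above cct-8 in replicate 2 and under it in replicate 1. Pooled summits were lacking at cct-2, cct-3, cct-4 and cct-6. At cct-6 both replicates had a low summit, 9.13 in replicate 1 and 8.89 in replicate 2, at cct-3 replicate 2 had 11, and cct-2 and cct-4 had none in any list.

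Small heat shock protein genes had a pooled summit at 9 of 15 (60%), against 23.7% of all genes, with low values. None of the 15 had a thresholded summit, which is near the 1.22% of all genes. Counted by gene, the 9 pooled summits had signals from 16.9 to 26.2 and a median of 19.9. The median for all genes with a pooled summit was higher, at 22.7. The divergent genes hsp-16.2 and hsp-16.41 share the same peak, which is counted at each of them. The highest were hsp-12.2 with 26.2 and hsp-43 with 23.2. Both replicate lists had a summit at 2 of the 15 genes (13.3%), hsp-43 and hsp-16.2, close to the 15.1% of all genes. Their replicate summits lay 363 bp and 227 bp apart. Of the 9 summits 5 lay upstream of the start, at a median distance of 180 bp from it over all 9, where all pooled summits of the DnaJ and CCT genes lay upstream, at medians of 333 bp and 255.5 bp. No pooled summit was found at hsp-12.6, hsp-16.1, hsp-16.11, hsp-16.21, hsp-16.48 and hsp-16.49. The windows of hsp-16.1, hsp-16.11, hsp-16.48 and hsp-16.49 are largely repeated sequence, described below, so their empty windows cannot be read.

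Constitutive genes were set beside heat-inducible ones by classes taken from textbook knowledge, which cover 23 members and leave 38 without a class. Among the 13 constitutive genes (the CCT genes, hsp-1, hsp-3, hsp-90, hsp-110 and hsp-75) 3 had a thresholded summit (23.1%), 8 a pooled summit (61.5%) and 10 a summit in both replicate lists (76.9%). Among the 7 heat-inducible genes (hsp-70 and 6 hsp-16 genes) 0 had a thresholded summit, 3 a pooled summit (42.9%) and 1 a summit in both replicate lists (14.3%). But 4 of the 7 are clustered hsp-16 genes in repeated sequence, described next, whose empty windows cannot be read. The 3 genes outside that cluster, hsp-70, hsp-16.2 and hsp-16.41, each had a pooled summit, and 1 of them had a summit in both lists. The shares of 7 are therefore not a fair measure against the constitutive genes. Over all genes the shares were 1.22% thresholded, 23.7% pooled and 15.1% in both lists, so 0 of 7 thresholded is near the background share. The 3 genes of the organelle stress responses, hsp-4, hsp-6 and hsp-60, all had pooled summits and summits in both replicate lists, and 1 had a thresholded one. The median pooled signal was 44.8 for the constitutive genes with a summit and 21.2 for the heat-inducible ones. The classes hold few genes, the 3 heat-inducible pooled summits are 2 peaks, and the difference between classes was not tested. The heat-inducible gene with a summit in both replicate lists was hsp-16.2, where the replicate summits lay 227 bp apart. At the 10 constitutive genes the distance ran from 6 bp at hsp-1 to 254 bp at cct-6 and 260 bp at hsp-110. A summit in both lists thus need not mean the same place in either class.

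The hsp-16 genes illustrate a limit of such a comparison, and 2 of their promoters are shown for it. Each is 300 bases of ce11, from 250 before to 50 after the start, in the direction of the gene: hsp-16.2 at chrV:1804908-1805207 (minus strand) and hsp-16.48 at chrV:9087881-9088180 (plus strand). Capitals mark the heat shock element cores, joined where they form a 3-unit element. The printed bases of hsp-16.48 and those of hsp-16.49 were identical at all 300 positions.
hsp-16.2: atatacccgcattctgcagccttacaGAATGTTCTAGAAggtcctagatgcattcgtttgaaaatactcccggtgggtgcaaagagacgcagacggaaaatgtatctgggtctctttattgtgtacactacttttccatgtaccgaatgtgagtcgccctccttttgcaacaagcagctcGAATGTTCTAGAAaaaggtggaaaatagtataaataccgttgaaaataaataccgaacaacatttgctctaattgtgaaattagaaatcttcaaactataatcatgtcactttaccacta
hsp-16.48: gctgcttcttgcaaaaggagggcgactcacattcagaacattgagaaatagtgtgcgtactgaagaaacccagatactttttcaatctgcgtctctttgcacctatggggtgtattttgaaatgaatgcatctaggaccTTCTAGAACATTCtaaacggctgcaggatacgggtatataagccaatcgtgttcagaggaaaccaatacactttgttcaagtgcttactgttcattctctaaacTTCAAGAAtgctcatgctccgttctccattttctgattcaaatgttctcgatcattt

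The genes hsp-16.1, hsp-16.48, hsp-16.49 and hsp-16.11 form a cluster of 3312 bp on chromosome V (9087293 to 9090604). No pooled, replicate 1 or replicate 2 peak touched it. The promoter windows of the 4 genes were covered to between 93.3% and 100% by stretches of 30 bases that occur elsewhere in the genome, a share above 50% that was found at 3.33% of all genes. Reads no longer than such a stretch cannot be placed uniquely, and neither labels nor notes used here give the read length or how such reads were handled. For these 4 genes an empty window cannot be told apart from one whose reads could not be placed. The pair hsp-16.2 and hsp-16.41, with repeated shares of 2.99% and 4.52%, did have a summit, which the divergent genes share. Its pooled signal was 21.2, near the median of 21.3 for all pooled peaks, and replicate 1 had 11.6 at both genes. In replicate 2 a summit of 9.29 lay in the window of hsp-16.2 and none in that of hsp-16.41. The pooled summit was 212 bp upstream of the hsp-16.2 start, on the last base of the first 3-unit element of the printed hsp-16.2 promoter.

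Heat shock elements were counted by class as well, with the same limit at the hsp-16 genes. The 3-unit element lay between 250 bp upstream and 50 bp downstream of the start in 10 of 61 members, against 1.97% of all promoters of this length. These were the 7 heat-inducible genes, hsp-1, hsp-110 and dnj-12, so that 2 of 13 constitutive genes and 0 of 3 organelle stress genes had one. Of the 10, hsp-1 alone had a thresholded summit, but 4 of them are the clustered hsp-16 genes, where an empty window cannot be read. The hsp-16 promoters are also not separate cases. The genes hsp-16.2 and hsp-16.41 share their elements. The divergent genes hsp-16.1 and hsp-16.48 share an element, and so do hsp-16.11 and hsp-16.49. In addition, hsp-16.48 and hsp-16.49 have the same 300 bases. Within 100 bases of the pooled summit the element was found at 5 of 35 members (14.3%), against 1.29% of all genes with a summit, and these were hsp-60, hsp-6, hsp-70, hsp-16.2 and hsp-16.41, the last pair by the same peak. Single cores were more frequent: GAANNTTC was found at 13 of 35 member summits (37.1%), against 11.2% over all genes, and TTCNNGAA at 8 (22.9%), against 11.6%. Every 3-unit element contains both cores, so these counts overlap. A match of letters is a description of the sequence and does not show that HSF-1 was bound.

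Of the other motifs searched, GGGCGG, a GC box, was found at 6 of 35 member summits (17.1%), against 8.88% of all, and GAGAGA at 5 (14.3%), against 20.6%. TATAAA, the TATA box, was found at 6 (17.1%), against 20% of all, and CACGTG, an E-box, at 1 (2.86%), against 4.65%. TGACGTG was found at 3 (8.57%), against 2.22%, the members being dnj-9, dnj-28 and dnj-29. All were read on both strands.

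The median share of G and C was higher at thresholded summits, with ranges that overlapped. The 101 bases around the summit had a median of 56.4% G and C at the 7 thresholded members (range 46.5 to 66.3%). At the 28 other members with a pooled summit the median was 42.1% (range 23.8 to 58.4%). Over all genes the medians were 50.5% at the 243 with a thresholded summit and 40.6% at the 4729 with a pooled one. The part of base composition in the chaperone signals was not tested.

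Many chaperone genes share their upstream region with a gene that runs the other way. A divergent neighbour whose start was within 2000 bp was found at 33 of 61 members (54.1%), against 25% of all genes, and at all 8 CCT genes. Thresholded summits were found at 6 of these 33 members (18.2%), against 1.94% of all genes with such a neighbour. Of the other 28 members 1 had a thresholded summit (3.57%), hsp-1, against 0.975% of all genes without such a neighbour. In 5 of the 7 thresholded cases the summit also lay in the window of a divergent gene, so the peak cannot be assigned to the chaperone from its place. Besides hsp-60 with Y22D7AL.10 these were cct-7 with T10B5.4, dnj-13 with F54D5.9, dnj-14 with glit-1, and dnj-29 with ndua-2 and fld-1. In 3 of the 7, hsp-60, cct-7 and dnj-14, the start of the other gene was the nearer. The hsp-90 summit was likewise shared, with C47E8.4, 265 bp upstream of its start. Over all pooled summits, 16 of 35 members shared theirs with another gene. The share of shared summits over all genes was not computed, so sharing is not shown to be particular to chaperone genes.

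**Figure D3:**
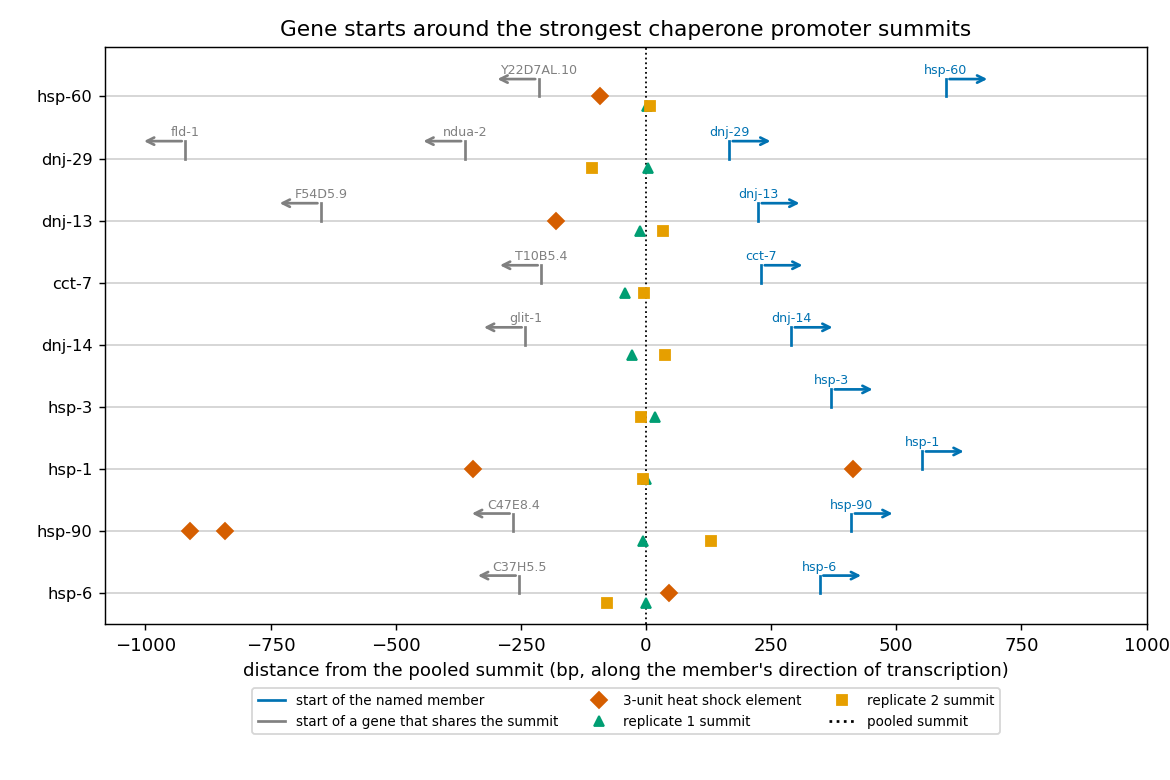
Gene starts around the pooled summits of the 9 members with the highest pooled signal, drawn to scale as distance from the summit in bp along the direction of the member. Blue arrows are the starts of members, grey arrows the starts of genes that share the summit, diamonds 3-unit heat shock elements, and triangles and squares the replicate summits. The summit lies between divergent starts in 7 of the 9 maps, and hsp-3 and hsp-1 have no sharing gene.

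All 7 thresholded summits lay upstream of the chaperone start. Of the 35 pooled summits 31 did (88.6%), against 83.2% over all genes. The median distance from the start over all pooled summits, on either side, was 262 bp at members and 294 bp over all genes. None of the 7 thresholded summits was within 200 bp of a tRNA, snoRNA, snRNA, rRNA or miRNA gene. Over all genes 67 of 243 thresholded promoter summits (27.6%) were. One pooled member summit was that close, that of hsp-16.20, 30 bp from the snRNA gene F08H9.10.

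At a cut of 549 peaks the replicates gave different sets of leading members. With replicate 1 left out, the 549 strongest peaks of replicate 2 put a summit at 5 members: hsp-60, dnj-29, dnj-13, hsp-1 and cct-7. With replicate 2 left out, the 549 strongest of replicate 1 did so at 4: hsp-60, dnj-14, hsp-3 and hsp-90. Shares over all genes were 1.19% without replicate 1 and 1.13% without replicate 2. Only hsp-60 was in both sets. Among the 25 members with a summit in both full lists the replicate summits lay a median of 135 bp apart, and 44% lay within 100 bp, against 131 bp and 43.9% for the 3024 genes with both. Position was thus no tighter at chaperone genes than at genes in general.

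**Figure D4:**
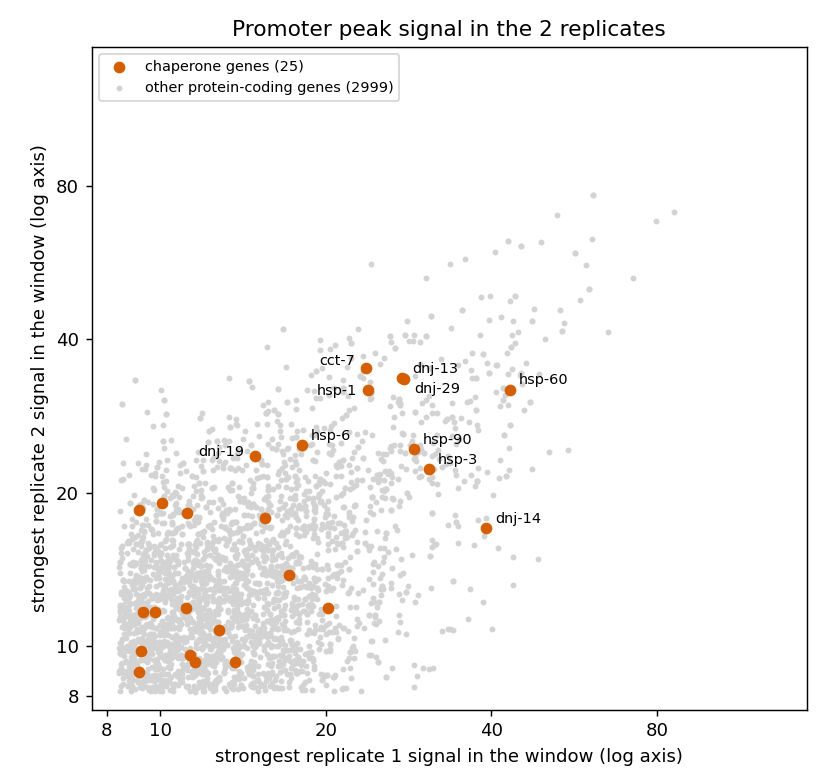
Strongest signal in the promoter window in replicate 1 (horizontal) and replicate 2 (vertical), both on log axes, for the 25 chaperone genes and the 2999 other protein-coding genes with a summit in both lists. The member hsp-60 is high in both, at 43.2 and 31.8, and dnj-14 is high in replicate 1 only, at 39.1 against 17.1 in replicate 2.

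The wider folding network was described from a list of 43 protein-coding genes for co-chaperones, prefoldin, folding enzymes of the endoplasmic reticulum and stress regulators, none of them a member. A thresholded summit was found at 2 (4.65%), against the 1.22% of all genes. They were unc-23, which encodes a BAG domain partner of Hsp70, with 76.7 pooled, 36.8 in replicate 1 and 34.8 in replicate 2, and atf-6, a transcription factor of the unfolded protein response, with 57.1 pooled, 34.3 in replicate 1 and 22.2 in replicate 2. Pooled summits were found at 33 of 43 (76.7%), against the 23.7% of all genes. Chosen after their values were seen, the stress regulators xbp-1 (47.7 pooled), ubl-5 (46.5) and atfs-1 (42.5) followed in the list. The gene of the heat shock factor, hsf-1, had no summit in any list. A heat-inducible Hsp70 pair outside the name rule, F44E5.4 and F44E5.5, shared a pooled summit of 23.4, close to the 24.3 of hsp-70, and had 13.1 in replicate 2 and none in replicate 1.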

How the data were processed

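Peak lists of 2 biological replicates (1 group) were used. Per the labels and the notes deposited with the lists, the authors made lists per replicate, a list from pooled reads and a list of optimal peaks, cut by irreproducible discovery rate (the thresholded list), each in ce10 and ce11. The column of signal was deposited by the authors and was used for ranking, and the deposited −log10 q-value was not used. Summits came from the deposited offsets. Aligner, peak caller, read depth and handling of multiply matching reads are not named in the labels or notes. No counting error could be computed.

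Genes, starts and sequences came from the RefSeq annotation and genome of WBcel235, the assembly also called ce11. Coordinates are 1-based and none was converted between builds. A gene took the strongest summit in its window of 1000 bp upstream to 200 bp downstream. Members are described by counts and medians beside all 19971 genes, with no test. The members, classes, motifs and folding network list were chosen with earlier results of these data known, so no list was tested and none is independent evidence. Genes named are those with thresholded summits, all genes of the classes, the 4 strongest of each family, members of large families without a pooled summit, and the 5 members just under the threshold. The window search was tested on simulated data. Python 3.11.15, numpy 2.4.6, pandas 2.3.3 and matplotlib 3.10.9 were used.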

Additional observations from a re-analysis of the deposited data

How the results depend on the processing

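No paired analysis was possible because the study has 1 group. Of 57 recomputed values, 38 kept within their limits (counts within 1.5 times, medians within the SD of 0.961 between the replicate medians). With a window of 500 bp upstream to 0 bp downstream, members with a pooled summit fell from 35 to 23 (against 13.1% of all genes). Those among the strongest of both replicates fell from 1 to 0 (against 0.361%). Inducible members (heat or organelle stress) with a thresholded summit fell from 1 to 0 (against 0.776%). The median pooled signal was 28.3, against 24.7 in the main setting. Giving each summit to the nearest start left 4 members with a thresholded summit, against 0.966% of all genes: dnj-29, dnj-13, hsp-1 and hsp-3. It left 23 with a pooled one (against 19.3%) and 0 among the strongest of both replicates (against 0.461%). No inducible member kept a thresholded summit (against 0.966%), and the median was 23.2. The 274 strongest peaks of the thresholded list kept 1 member, hsp-60 (against 0.546% of all genes), 0 constitutive members and 1 network gene. Leaving out a replicate gave 4 to 5 members among the strongest 549 peaks and medians of 11.9 to 13.2, on the lower scale of the replicate lists. Taking 274 peaks of each replicate left 0 members in both (against 0.26% of all genes), and 1098 gave 7 (against 1.13%). With hsp-4, hsp-6 and hsp-60 counted as constitutive, 0 inducible members remained, and with DnaJ genes counted as constitutive, an alternative chosen after seeing the data, there were 6 constitutive ones with a thresholded summit. Overlap in place of summits, other transcript starts and removal of peaks near small RNA genes moved none of the values beyond these limits. Read depth, which sets how many weak summits are listed, is not known here.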

Other observations

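Peaks inside chaperone genes were described apart from those at promoters. A pooled summit lay in the gene body outside the promoter window at 30 of 61 members, and 10 of the 26 members without a pooled promoter summit had one. The highest was at dnj-20, with a signal of 49.3 (rank 636), 6681 bp downstream of the start and near the far end of the gene. The promoter summit of dnj-20 was among the weakest of the pooled list, at rank 16571. Second was hsp-90 with 41, 424 bp downstream of the start and beside the promoter summit of 51.2. At hsp-110, which had no pooled promoter summit, the gene body reached 30.5 and at cct-2 it reached 28.9. Both summits, like that of dnj-20, lay near the far end of the gene. Whether such summits belong to a neighbouring gene was not tested. The hsp-70 gene had 28.3 in its body, 1129 bp downstream, above its promoter value of 24.3. These genes were chosen after their values were seen, and no share over all genes was computed for gene bodies.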
